A study of Homo sapiens with 18 samples.

Results

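Expression changes that ran in opposite directions in 2 pairs of serous ovarian cancer cell lines were examined by RNA-seq. Each pair holds a platinum-sensitive line and its resistant counterpart, PEO1 with PEO4 and PEA1 with PEA2. The members are the 12 libraries of these 4 lines, 3 per line, out of 18 libraries in the series, and the other 6 come from A2780 and its derivative CP70. They were chosen by the name of the line and not by any measured value. PEO1 and PEO4 were derived from 1 patient with high-grade serous carcinoma, both after platinum treatment, PEO1 while the disease was sensitive and PEO4 once it had become resistant in the clinic. The source of the other pair was ascites, also of 1 patient with this disease. When PEA1 was taken no platinum had yet been given, and PEA2 dates from a later, resistant stage. The lines were cultured in RPMI-1640 with glutamine and 10% FBS, and the labels of these libraries name no drug or vector given in culture, so what is compared is the state of each line in culture. Each line is 1 line from 1 patient, so resistance, line and the time between the samplings cannot be told apart, and a difference between the pairs is also one between their patients and between a treated and an untreated sensitive baseline. Nothing states that the 3 libraries of a line came from separate cultures, so p-values measure only the spread between these libraries, which may be technical.

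The interaction contrast asked of each gene whether its resistance change, PEO4 minus PEO1, differed from the change PEA2 minus PEA1. Values are log2 CPM (counts scaled to library size, in the usual unit of CPM, after an addition of 0.5 reads), and a difference of such values is called log2FC. The libraries held 1344098 to 1670866 reads on the listed genes in PEA1, 2130465 to 4027657 in PEA2, 2785569 to 7067336 in PEO1 and 2516688 to 2966814 in PEO4. A line was taken to be at the floor of a gene where each of its 3 libraries held at most 3 reads, a level of 1.73 to 2.18 CPM in PEA1, the shallowest line. Floors and counting intervals cover counting error only. Folds are 2 raised to the log2FC, and a value after ± is the standard error (SE). The 3 libraries of each line were set against one another, and no pair of them was the same within counting noise, with a chi-square of their reads of 1.74 to 13.5 per degree of freedom.

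Platinum drugs form adducts that bridge bases of DNA, and cells remove or tolerate them through nucleotide excision repair, homologous recombination and translesion synthesis. High-grade serous carcinoma is an epithelial tumour that usually expresses PAX8, WT1, keratin 7 and the mucin MUC16, which is measured in the clinic as CA125. NF-kB transcription factors switch on chemokine genes such as CXCL8, while SREBP factors switch on the genes of cholesterol synthesis when sterols run low.

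The lines were first set against serous markers. PAX8, a lineage transcription factor, was present in all 4 lines, with a mean log2 CPM of 8.35 in PEA1, 8.33 in PEA2, 7.3 in PEO1 and 7.95 in PEO4. WT1, another lineage factor, averaged 2.64 in PEA1, 2.91 in PEA2, 6.49 in PEO1 and 7.93 in PEO4. MUC16 averaged 0.51 in PEA1, 7.2 in PEA2, 11.42 in PEO1 and 11.31 in PEO4, KRT7 0.82 in PEA1, 10.05 in PEA2, 10.93 in PEO1 and 8.49 in PEO4 and the adhesion molecule EPCAM 3.98 in PEA1, 8.58 in PEA2, 8.45 in PEO1 and 8.92 in PEO4. E-cadherin (CDH1) averaged 0.25 in PEA1, 9.53 in PEA2, 7.17 in PEO1 and 6.55 in PEO4, and the oestrogen receptor gene ESR1 had no read in PEA1. PEA1 thus carried PAX8 but had few or no reads of KRT7, MUC16, CDH1 and ESR1, which goes against an epithelial serous profile, while KRT8 averaged 6.49 and KRT18 6.1 in PEA1. The authors state that the identity of the lines was checked by STR profiling. Over the whole list of 26 serous markers in the table the summed level was 875 to 1080 CPM in PEA1, 4160 to 4480 in PEA2, 8890 to 10100 in PEO1 and 6490 to 8230 in PEO4, and 8 of the markers had no read in PEA1. Every change of the PEA pair below rests on PEA1 as its baseline and cannot be computed without it.

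The promoters of the chemokine genes and of 2 sterol genes are shown first because the results for these gene groups are among those described in depth below. The sequences are from RefSeq (GRCh38.p14) and cover the 250 bases before the start of the gene, read 5′ to 3′ on the strand of the gene. Capitals mark GGANTTTCC, an NF-kB motif, in CXCL8 (listed as IL8 in the table) at chr4:73740319-73740568 (+), CXCL1 at chr4:73869143-73869392 (+), CXCL2 at chr4:74099196-74099445 (-) and IL6 at chr7:22726950-22727199 (+). In SREBF2 at chr22:41832855-41833104 (+) and HMGCS1 at chr5:43313413-43313662 (-) they mark TCACNCCAC, a sterol regulatory element, and CCAAT, the NF-Y box, which reads ATTGG when it lies on the other strand. HMGCS1 held CCAAT alone of these.
CXCL8: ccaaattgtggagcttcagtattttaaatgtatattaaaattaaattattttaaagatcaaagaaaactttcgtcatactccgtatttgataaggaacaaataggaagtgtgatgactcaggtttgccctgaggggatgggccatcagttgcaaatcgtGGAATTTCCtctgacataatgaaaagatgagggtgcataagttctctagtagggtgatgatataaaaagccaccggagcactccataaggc
CXCL1: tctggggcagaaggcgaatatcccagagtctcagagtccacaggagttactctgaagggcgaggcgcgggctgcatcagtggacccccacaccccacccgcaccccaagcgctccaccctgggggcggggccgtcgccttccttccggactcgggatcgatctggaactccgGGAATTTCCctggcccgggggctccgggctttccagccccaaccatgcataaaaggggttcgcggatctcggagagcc
CXCL2: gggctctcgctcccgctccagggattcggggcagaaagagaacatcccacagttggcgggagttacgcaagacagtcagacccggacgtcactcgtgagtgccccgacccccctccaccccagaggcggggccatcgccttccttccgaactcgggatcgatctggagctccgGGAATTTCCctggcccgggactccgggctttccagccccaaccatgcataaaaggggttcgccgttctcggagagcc
IL6: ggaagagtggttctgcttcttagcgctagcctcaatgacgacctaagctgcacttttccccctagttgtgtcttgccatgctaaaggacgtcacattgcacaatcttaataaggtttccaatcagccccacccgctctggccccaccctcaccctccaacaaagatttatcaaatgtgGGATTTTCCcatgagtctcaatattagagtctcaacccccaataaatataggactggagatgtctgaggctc
SREBF2: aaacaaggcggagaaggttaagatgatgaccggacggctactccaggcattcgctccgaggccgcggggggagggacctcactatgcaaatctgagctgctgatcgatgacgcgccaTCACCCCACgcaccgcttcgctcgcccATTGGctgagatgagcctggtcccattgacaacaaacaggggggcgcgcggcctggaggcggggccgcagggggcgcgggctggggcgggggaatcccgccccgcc
HMGCS1: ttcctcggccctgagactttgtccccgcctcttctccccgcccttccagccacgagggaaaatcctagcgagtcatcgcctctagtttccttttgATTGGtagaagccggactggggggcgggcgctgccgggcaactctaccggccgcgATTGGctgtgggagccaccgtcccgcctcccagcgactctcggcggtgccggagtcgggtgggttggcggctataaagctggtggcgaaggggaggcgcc

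Each motif was searched on both strands of 27305 promoters. GGANTTTCC stood in 1.47% of them, TCACNCCAC in 0.875% and CCAAT in 33%. Of the 10 cytokine and NF-kB target genes that rose in PEA2 and fell in PEO4, 6 held GGANTTTCC, as did 7 of the 16 other genes of that list with a promoter in the table. All 10 such cholesterol genes with a promoter in the table held CCAAT and 1 held TCACNCCAC, against 5 and 0 of the 8 other cholesterol genes. A match describes these letters only.

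Across the 12853 genes of the table, 180 were called in both pairs with opposite signs, at an FDR below 0.05 (Benjamini-Hochberg over all genes, limma) and a log2FC beyond 2, a 4-fold change, in each. Of these, 77 were higher in PEO4 than in PEO1 and lower in PEA2 than in PEA1, which is 0.599% of all genes. The other 103, or 0.801%, were lower in PEO4 and higher in PEA2. A further 127 genes were called in both pairs with the same sign, 61 higher and 66 lower in the resistant lines. At the FDR alone 1861 genes were opposed (14.5%), 788 of them higher in PEO4 (6.13%) and 1073 higher in PEA2 (8.35%), beside 1546 genes (12%) of the same sign. Over all genes the 2 changes had a Spearman's rho of -0.06, given as a description, and the pairs share no library. The interaction was called with a log2FC beyond 2 for 1099 genes in the positive direction (8.55%), meaning that PEO4 minus PEO1 exceeded PEA2 minus PEA1, and for 1395 in the negative direction (10.9%).

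**Figure D1:**
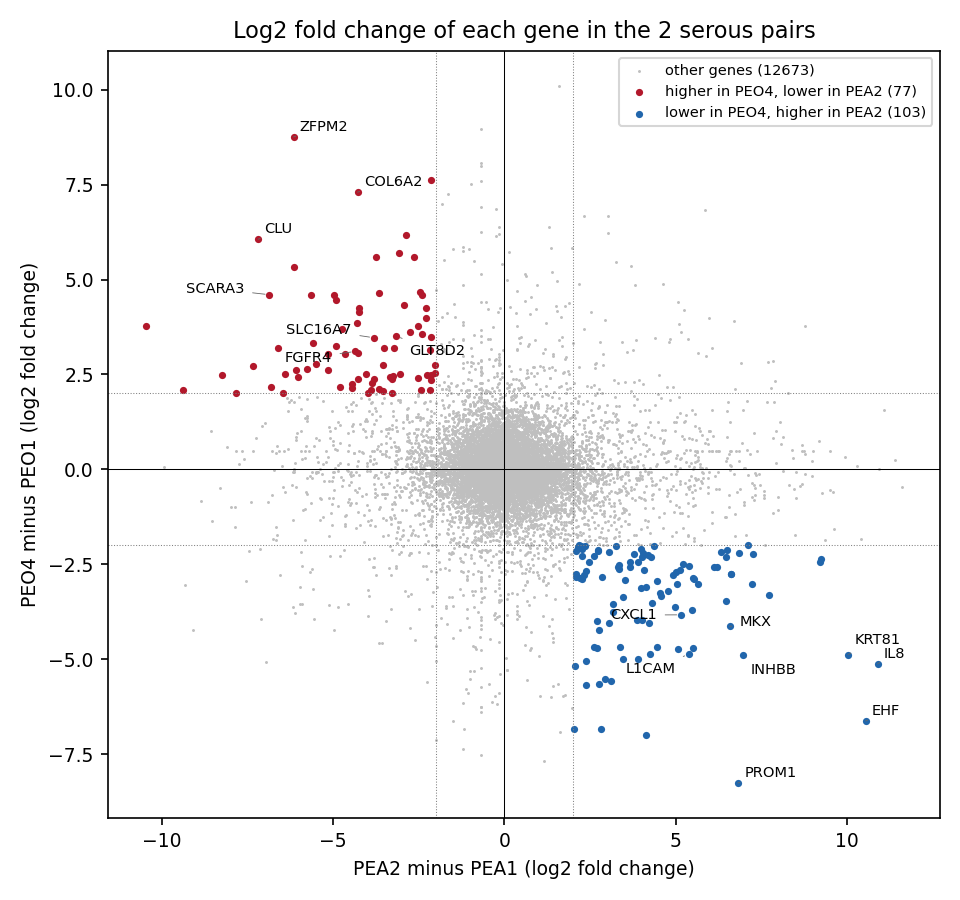
Log2FC of every gene, PEA2 minus PEA1 on the x axis and PEO4 minus PEO1 on the y axis, in log2 units, with dotted lines at a 4-fold change. The 77 red genes rose in PEO4 and fell in PEA2, the 103 blue genes did the opposite, and the named genes reach from ZFPM2 at fitted values of -6.16 and 8.76 to EHF at 10.55 and -6.63.

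How far these calls rest on very low levels was counted. Of the 77 genes higher in PEO4, 26 had every line above the floor, while 32 had 1 line there, 15 had 2, 3 had 3 and 1 had all 4. Of the 103 genes higher in PEA2, 42 had every line above the floor, 45 had 1 line there and 16 had 2. The fitted log2FC of a gene at the floor depends on the 0.5 reads added, so for such genes a bound or ratio of reads per depth is given below. A bound, written as at least, sets a line without a read at 3 reads over its 3 libraries together. That is a lower level than the floor of 3 reads in each library, which would give smaller bounds. With each line at the floor put at 3 reads per library, 51 of the 77 and 72 of the 103 were still called. Libraries of the lines did not overlap in either pair for all 77 genes higher in PEO4 and for 101 of the 103 higher in PEA2. The choice by FDR and log2FC all but fixes this, and the share over all genes was not counted. Lines without a read can also fail to overlap, as PEA1 and PEA2 did for DCN, because the 0.5 reads added scale with depth. All 180 also passed the interaction test, which the way they were chosen all but fixes. Just inside the threshold lay KIAA0930 with log2FC of 2.17 for PEA2 minus PEA1 and -2.0 for PEO4 minus PEO1. Just outside it lay BOC with -2.0 and 4.73 and PLA2R1 with -3.75 and 2.0.

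CLU, which encodes clusterin, a secreted chaperone and inhibitor of complement, had log2 CPM of 8.29, 8.78 and 8.66 in PEA1, 1.26, 1.85 and 1.04 in PEA2, 1.78, 2.47 and 2.38 in PEO1, and 7.98, 8.42 and 8.41 in PEO4. It was high in PEA1 and PEO4, low in PEA2 and PEO1, and no library overlapped within a pair. It was 146-fold lower in PEA2 (log2FC -7.19 ± 0.23, SE, FDR = 1.09e-12) and 66.8-fold higher in PEO4 (6.06 ± 0.23, FDR = 4.85e-11). SCARA3, a scavenger receptor gene that lies beside CLU on chromosome 8 (27454434 to 27472217 for CLU and 27491385 to 27534293 for SCARA3, GRCh37), showed 5.85, 5.86 and 5.98 in PEA1, 0.42, -1.21 and -2.13 in PEA2, 3.32, 3.89 and 4.13 in PEO1, and 8.31, 8.31 and 8.52 in PEO4. PEA2 held 3 reads of SCARA3 in all, so the ratio of PEA1 to PEA2 was 150 with a 95% counting interval of 50.6 to 730. In the PEO pair SCARA3 was 24.3-fold higher in PEO4 (4.6 ± 0.44, FDR = 6.3e-07).

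ZFPM2, a cofactor of GATA transcription factors also known as FOG2, had values of 4.21, 4.95 and 4.8 in PEA1, 0.42, -2.8 and -2.13 in PEA2, -2.61, -0.9 and -2.15 in PEO1, and 6.85, 6.98 and 6.79 in PEO4. It was near absent from PEA2 and PEO1, with 2 reads in each line, and present in every library of PEA1 and PEO4. The ratio was 96.7 (26.2 to 808) for PEA1 over PEA2 and 734 (203 to 6067) for PEO4 over PEO1. ZFPM2 overlaps an antisense gene, and the sources used here do not give the strand setting of the counting. ID4, an inhibitor of helix-loop-helix transcription factors, averaged 4.0 in PEA1, 1.08 in PEA2, 5.1 in PEO1 and 9.43 in PEO4, a 20.1-fold rise in PEO4 and a 7.59-fold fall in PEA2. SEMA5A, an axon guidance protein, rose 24.0-fold in PEO4 and fell 5.34-fold in PEA2. The fibroblast growth factor receptor FGFR4 rose 8.60-fold and fell 20.5-fold, the monocarboxylate transporter SLC16A7 rose 11.1-fold and fell 14.1-fold, and the glycosyltransferase-like gene GLT8D2 rose 11.4-fold and fell 8.94-fold. These last 5 genes had every line above the floor, and their FDR was at most 4.65e-05 in both pairs.

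**Figure D2:**
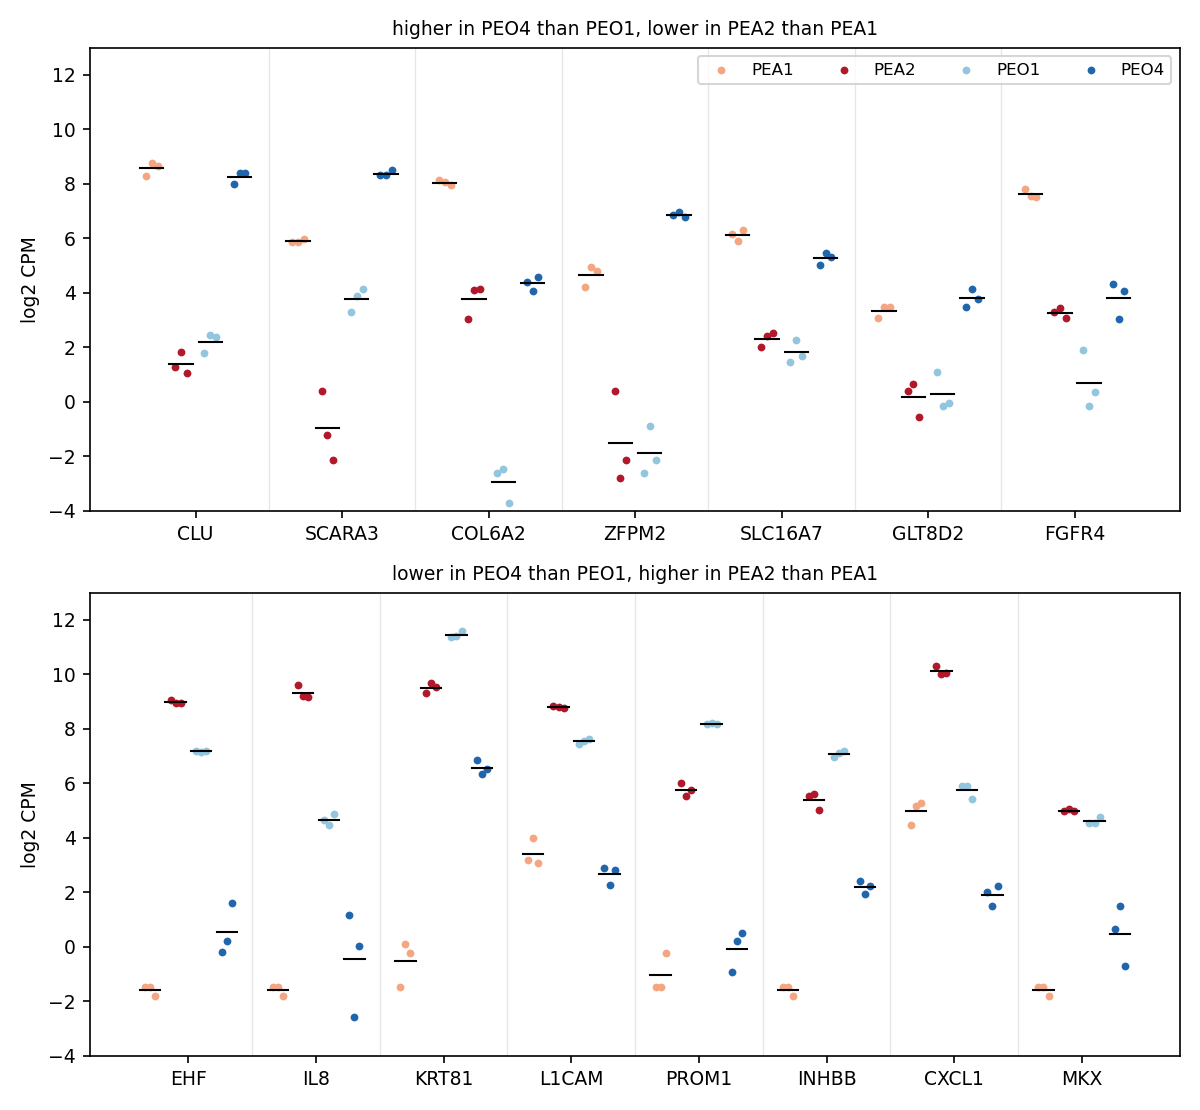
Log2 CPM of the genes with the largest smaller change in each direction that are reported here, 1 point per library and a bar at the mean of each line (PEA1, PEA2, PEO1, PEO4). In the upper panel PEA1 and PEO4 lie above their partners, and in the lower panel PEA2 and PEO1 do, as with CLU at means of 8.58 and 8.27 against 1.38 and 2.21.

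Genes of complement, the blood-borne defence that cells restrain on their own surface, lay on both sides. CFI and SERPING1, both inhibitors and named after their values were seen, were lower in PEA2 and higher in PEO4. CFI had no read in PEA2 and was at least 6.11-fold higher in PEA1, and it rose 25.1-fold in PEO4. SERPING1 fell 4.86-fold in PEA2 and rose 15.8-fold in PEO4. The fall of SERPING1 rests on few reads, 7, 4 and 5 in PEA1 and 2, 5 and 0 in PEA2. The central component C3 moved the opposite way, with 7.82, 7.62 and 7.65 in PEA1, 11.06, 11.41 and 11.20 in PEA2, 8.6, 8.75 and 8.82 in PEO1, and 5.49, 6.12 and 5.83 in PEO4. C3 rose 11.5-fold in PEA2 (3.53 ± 0.14, FDR = 8.89e-12) and fell 7.51-fold in PEO4 (-2.91 ± 0.14, FDR = 3.46e-10). C3 overlaps GPR108 on the same strand, so reads there could be shared.

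EHF, an ETS transcription factor of epithelial cells, had the largest negative interaction of the named genes (log2 -17.19 ± 0.49, FDR = 5.2e-13). It had no read in PEA1, and log2 CPM of 9.04, 8.94 and 8.94 in PEA2, 7.19, 7.14 and 7.18 in PEO1 and -0.21, 0.22 and 1.61 in PEO4. It was thus at least 752-fold higher in PEA2 than in PEA1, and 99.1-fold lower in PEO4 than in PEO1. PROM1, the stem cell marker CD133, had -1.46, -1.49 and -0.21 in PEA1, 6.02, 5.53 and 5.76 in PEA2, 8.18, 8.2 and 8.19 in PEO1, and -0.95, 0.22 and 0.51 in PEO4. The ratio for PROM1 was 239 (42.7 to 9474) for PEA2 over PEA1 and 348 (169 to 867) for PEO1 over PEO4. L1CAM, a neural cell adhesion molecule, had every line above the floor, with 3.18, 4.0 and 3.06 in PEA1, 8.82, 8.8 and 8.76 in PEA2, 7.44, 7.56 and 7.61 in PEO1, and 2.9, 2.27 and 2.83 in PEO4. It rose 41.6-fold in PEA2 (FDR = 1.02e-11) and fell 29.3-fold in PEO4 (FDR = 1.35e-10).

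INHBB, an activin and inhibin subunit, had no read in PEA1, 86, 168 and 70 reads in PEA2, and log2 CPM of 6.98, 7.10 and 7.19 in PEO1 against 2.42, 1.94 and 2.22 in PEO4. It was at least 64.8-fold higher in PEA2 and 29.7-fold lower in PEO4. INHBA, another such subunit, named after its values were seen, rose 27.7-fold in PEA2 and fell 9.26-fold in PEO4, with means of 5.28 in PEA1, 10.07 in PEA2, 6.31 in PEO1 and 3.1 in PEO4. The homeobox factor MKX had no read in PEA1 and was at least 48.2-fold higher in PEA2, and it was 17.6-fold lower in PEO4 (FDR = 2.28e-06). Among the most highly expressed genes of this group, the tight junction gene CLDN1 averaged 8.97 in PEA1, 12.14 in PEA2, 9.39 in PEO1 and 5.62 in PEO4, the kinase scaffold AKAP12 6.26 in PEA1, 9.44 in PEA2, 10.51 in PEO1 and 6.96 in PEO4 and the retinaldehyde dehydrogenase ALDH1A3 3.58 in PEA1, 10.06 in PEA2, 10.72 in PEO1 and 8.41 in PEO4. They rose 8.96-fold, 9.03-fold and 89.1-fold in PEA2 and fell 13.6-fold, 11.7-fold and 4.94-fold in PEO4, and all 3 had every line above the floor.

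The order of the 4 lines was described by comparing like with like, PEO1 with PEA1 and PEO4 with PEA2. The choice of members fixes the sign of the second difference minus the first, so the classes are a description. Of the 180 genes, 83 were exchanged, called more than 4-fold apart in both comparisons and in opposite orders. CLU, EHF, IL8 and KRT81 are of this kind. Another 49 were drawn together, apart in the sensitive lines only, such as COL6A2 and FGFR4. A further 42 parted, apart in the resistant lines only, such as CXCL1, CLDN1 and TRIB3, and 6 kept the same order. Among genes higher in PEO4 the counts were 34 exchanged, 25 drawn together and 15 parted, and among those higher in PEA2 they were 49, 24 and 27.

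**Figure D3:**
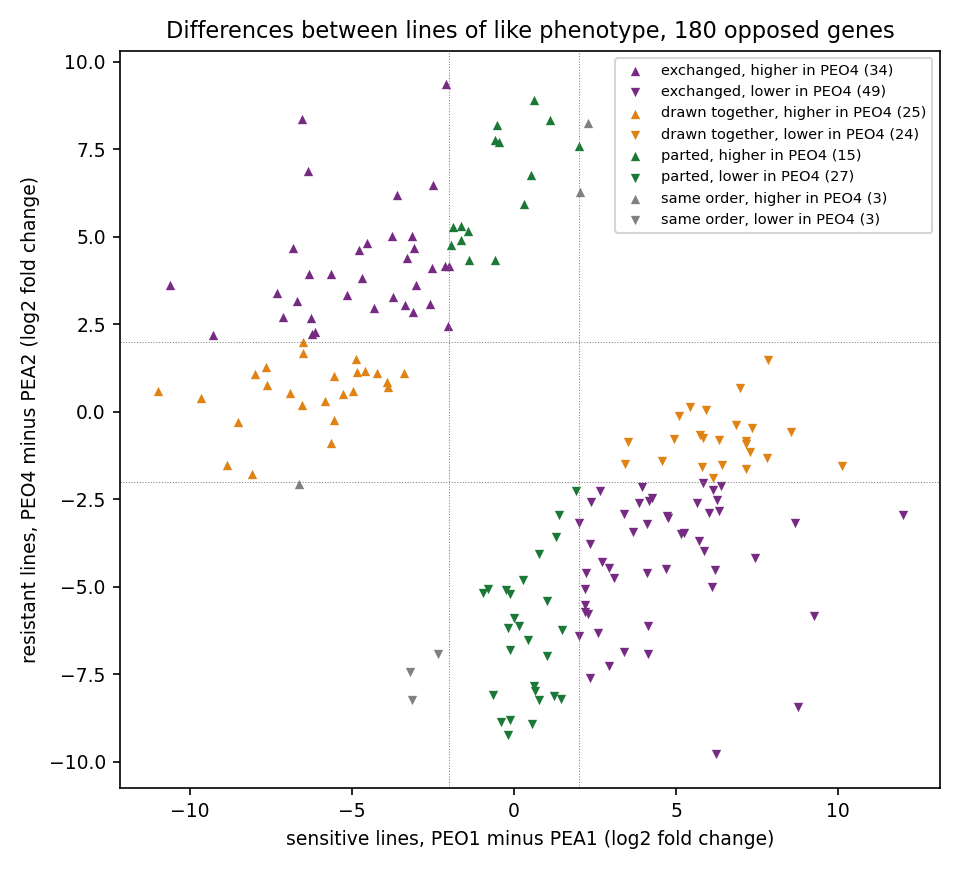
Difference between the sensitive lines (x axis, PEO1 minus PEA1) and between the resistant lines (y axis, PEO4 minus PEA2) for the 180 opposed genes, in log2 units, with dotted lines at 4-fold. The 83 exchanged genes (purple) fill the outer corners, the 49 drawn together (orange) lie between the horizontal lines and the 42 parted genes (green) between the vertical ones.

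Genes were also counted by list, with a member called opposed at an FDR below 0.05 in both pairs whatever its size. Single changes were called at this FDR for 32.0% of all genes as higher in PEA2, 28.6% as lower in PEA2, 19.3% as higher in PEO4 and 21.3% as lower in PEO4, and the interaction for 27.4% in the positive and 30.1% in the negative direction. The median log2FC over all genes was 0.01 in the PEA pair, -0.02 in the PEO pair and -0.03 for the interaction. Opposed genes made up 6.13% of all genes with PEO4 higher and 8.35% with PEA2 higher. Each count of opposed members below is to be set beside these shares. Of 51 lists with at least 8 members in the table, 24 had medians of opposite sign, 7 with the higher median in the PEO pair and 17 with the higher in the PEA pair. Lists with medians of opposite sign were ranked by whichever of their medians was smaller in size. The 5 highest of each direction are described, together with DNA repair, interferon-stimulated and cell type marker lists. This does not rank the distance between the medians, which was wider for epithelial junction genes (4.12 and -0.13) than for Wnt genes (0.17 and -0.16). In the other direction it was wider for HLA class I genes (-0.07 and 1.12) than for DNA methylation and polycomb genes (-0.23 and 0.09).

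**Figure D4:**
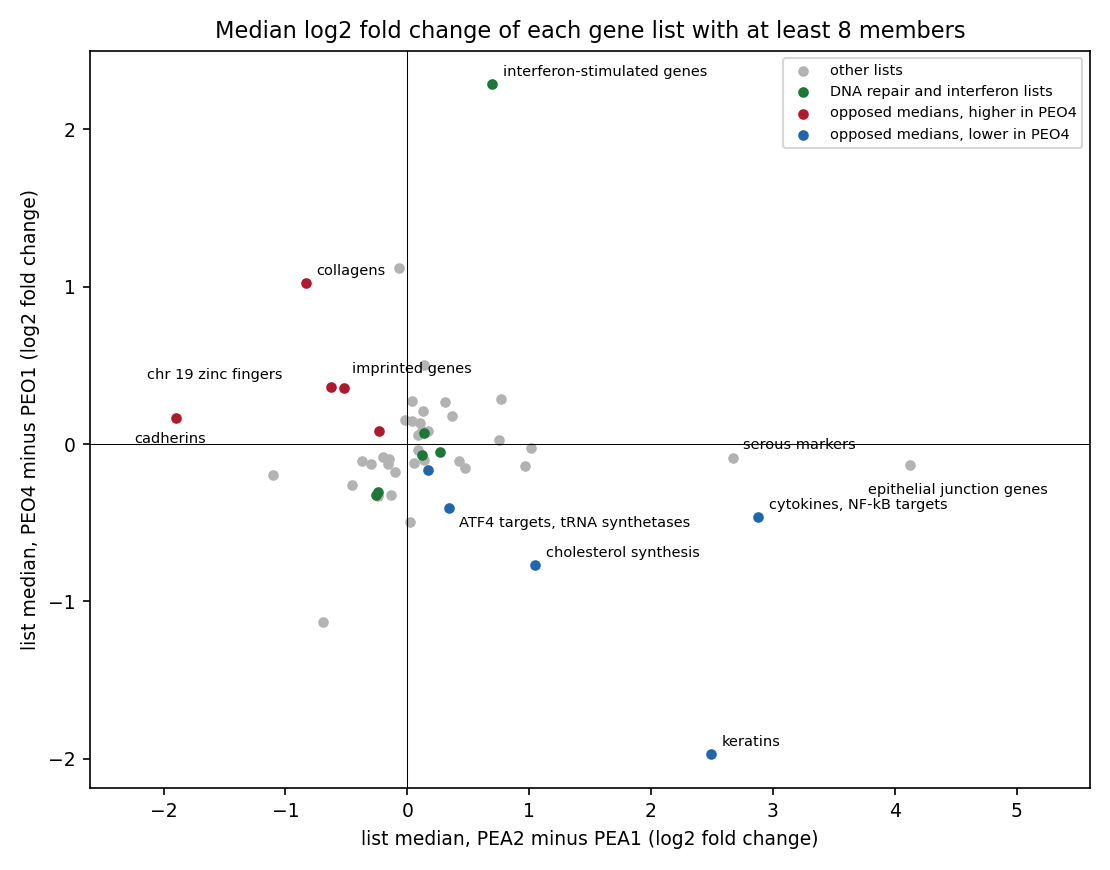
Median log2FC over the members of each gene list, PEA2 minus PEA1 (x axis) against PEO4 minus PEO1 (y axis), in log2 units, 1 point per list. Keratins, at 2.49 and -1.97, lie farthest into the lower right, collagens, at -0.83 and 1.02, lie in the upper left, and interferon-stimulated genes, at 0.70 and 2.29, had positive medians in both pairs.

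Most chemokine and NF-kB target genes rose in PEA2, and more of them fell than rose in PEO4. Of 31 measured members 22 rose and 4 fell in PEA2, 5 rose and 13 fell in PEO4, and 10 were opposed, all higher in PEA2, against 8.35% of all genes. The interaction was negative in 24 and positive in 2. The median log2FC was 2.88 for PEA2 minus PEA1 and -0.47 for PEO4 minus PEO1, the latter 0.21 with lines at the floor put at 3 reads. IL8, a neutrophil attractant (chromosome 4, 74606236 to 74609433, GRCh37), had no read in PEA1, log2 CPM of 9.62, 9.20 and 9.15 in PEA2 and 4.64, 4.46 and 4.87 in PEO1, and 6, 0 and 2 reads in the PEO4 libraries. It was at least 952-fold higher in PEA2 than in PEA1 and 34.8-fold lower in PEO4 than in PEO1 (FDR = 9.04e-06).

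CXCL1, which lies on the same arm of chromosome 4 (74735110 to 74737025) and attracts the same cells, had 4.47, 5.17 and 5.28 in PEA1, 10.32, 10.01 and 10.05 in PEA2, 5.9, 5.9 and 5.42 in PEO1, and 1.99, 1.5 and 2.22 in PEO4. All lines of CXCL1 were above the floor, and it rose 35.7-fold in PEA2 (5.16 ± 0.22, FDR = 2.59e-11) and fell 14.3-fold in PEO4 (-3.83 ± 0.22, FDR = 2.7e-09). Its neighbour CXCL2 rose 13.8-fold and fell by a ratio of 5.63 (2.57 to 14.6). The cytokine TNF, with 2, 0 and 5 reads in PEA1, rose 45.8-fold in PEA2, and PEO1 exceeded PEO4 by a ratio of 40.1 (10.9 to 335). IL1B had no read in PEA1 and was at least 350-fold higher in PEA2, while its 10 reads in PEO1 and 1 in PEO4 gave a ratio of 6.69 (0.951 to 290). IL6 rose 7.37-fold in PEA2 and fell 3.99-fold in PEO4. The feedback inhibitors NFKBIA and TNFAIP3 moved alike but less, by 1.80-fold and 4.01-fold in PEA2 and 2.28-fold and 2.37-fold in PEO4. CXCL5, in contrast, had 11213 reads over the PEA2 libraries, 1 in PEA1, 3 in PEO1 and none in PEO4, so no fold is given for the PEO pair. IL6, CXCL2, CXCL5, NFKBIA and TNFAIP3 were named after their values were seen.

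Markers of other cell types were also looked up, and most of those for leukocytes and endothelium were not in the table. Of 8 leukocyte markers only PTPRC (CD45) was in the table, with 20.1 to 25.1 CPM in PEA2 and no read in PEA1, PEO1 or PEO4. Of 6 endothelial markers only CDH5 was in the table, at 25.3 to 36.1 CPM in PEA2, none in PEA1, 0 to 0.406 CPM in PEO4 and 0 to 0.151 CPM in PEO1. Of 6 mesothelial markers 5 were in the table, summing to 167 to 189 CPM in PEA1, 351 to 407 in PEA2, 289 to 308 in PEO1 and 388 to 399 in PEO4. The part of cells of these types in the chemokine result was not tested. In bulk RNA, fewer cells of a type and less RNA per cell cannot be told apart.

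Most genes of cholesterol synthesis rose in PEA2, and most fell in PEO4. Of 25 measured 18 rose and 2 fell in PEA2, and 2 rose and 17 fell in PEO4. The 12 opposed were all higher in PEA2, against 8.35% of all genes. The interaction was negative in 20 and positive in 1, against 30.1% and 27.4% of all genes. Medians were 1.05 and -0.77. HMGCS1, which makes the HMG-CoA that the pathway starts from, had 6.57, 6.51 and 6.41 in PEA1, 10.05, 10.04 and 9.79 in PEA2, 6.55, 6.43 and 6.49 in PEO1, and 5.54, 5.42 and 5.46 in PEO4. HMGCS1 averaged 6.49 in both sensitive lines, and it rose 11.1-fold in PEA2 (3.47 ± 0.1, FDR = 1.63e-13) and fell 2.02-fold in PEO4 (-1.01 ± 0.1, FDR = 6.15e-07).

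SREBF2, the transcription factor that drives the pathway, had 7.03, 6.67 and 6.98 in PEA1, 8.38, 8.75 and 8.75 in PEA2, 7.72, 7.67 and 7.76 in PEO1, and 5.03, 5.59 and 5.51 in PEO4. It rose 3.32-fold in PEA2 (FDR = 7.24e-08) and fell 5.05-fold in PEO4 (FDR = 7.67e-09), with no overlap in either pair. SREBF2 overlaps an antisense gene. The sterol dehydrogenase NSDHL rose 2.29-fold and fell 4.19-fold, and the sterol carrier STARD4 rose 8.24-fold and fell 1.71-fold. The sterol sensor INSIG1, named after its values were seen, rose 2.55-fold and fell 3.18-fold.

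**Figure D5:**
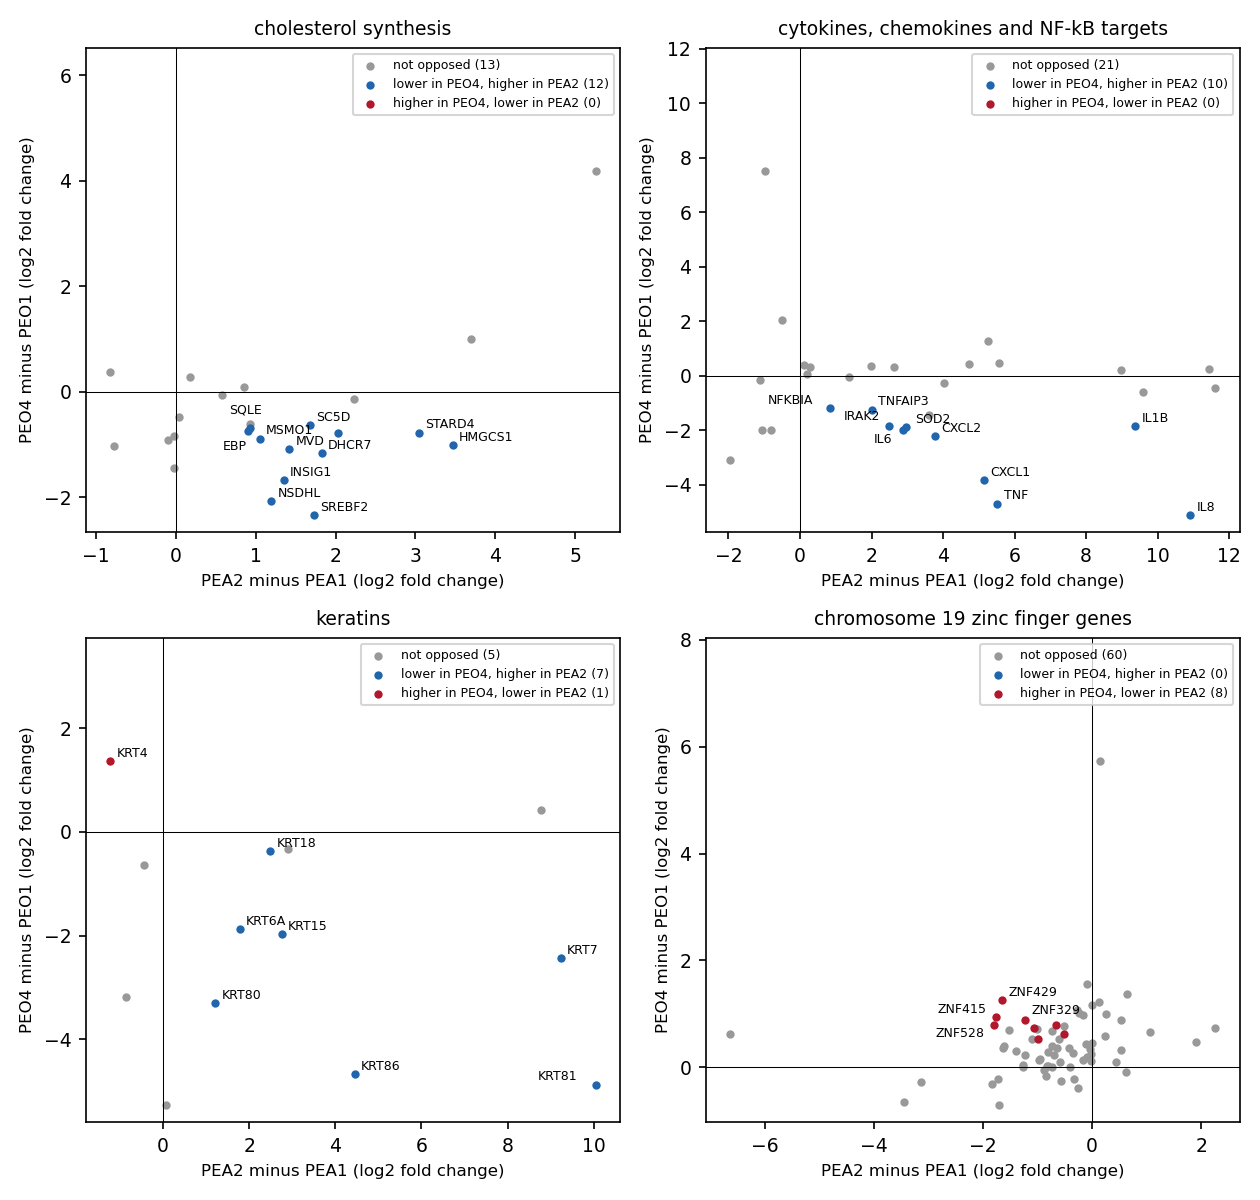
Log2FC of every member of 4 gene lists in the PEA pair (x axis) and the PEO pair (y axis), in log2 units, coloured where a member was opposed at an FDR below 0.05. Coloured members in the lower right were 12 of 25 in cholesterol synthesis, 10 of 31 in cytokines and 7 of 13 in keratins. In the upper left 8 of 68 zinc finger genes were coloured. Members that were not opposed at this FDR lie in these corners too.

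Keratins, the intermediate filaments of epithelial cells, mostly rose in PEA2 and mostly fell in PEO4. Of 13 measured 9 rose and 1 fell in PEA2, and 1 rose and 9 fell in PEO4. Opposed were 7 with PEA2 higher and 1, KRT4, the other way, against 8.35% and 6.13% of all genes. KRT7 had 1.35, 0.1 and 1.01 in PEA1, 10.04, 10.14 and 9.98 in PEA2, 10.97, 10.97 and 10.84 in PEO1, and 8.55, 8.24 and 8.68 in PEO4. PEA1 was almost without KRT7, so the ratio of PEA2 to PEA1 was 693 (336 to 1723), and KRT7 fell 5.42-fold in PEO4 (FDR = 3.51e-07). The hair keratin KRT81 had -1.46, 0.1 and -0.21 in PEA1, 9.33, 9.67 and 9.54 in PEA2, 11.37, 11.41 and 11.59 in PEO1, and 6.84, 6.34 and 6.54 in PEO4, a ratio of 1701 (471 to 14053) in PEA2 and a 29.4-fold fall in PEO4. KRT86 and KRT15 had ratios of 49.2 (8.58 to 1966) and 11.1 (2.86 to 95.0) in PEA2 and fell 25.6-fold and 3.92-fold in PEO4. KRT81 and KRT86 are near-identical copies whose reads may be split between them, and KRT86 overlaps KRT7 on the same strand and KRT81 on the other, so their separate values are uncertain.

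KRT18 and KRT8, the keratins of simple epithelium, overlap each other on opposite strands. KRT18 rose 5.63-fold in PEA2 and fell 1.29-fold in PEO4 (FDR = 0.00766). KRT8 rose 7.51-fold in PEA2, and its log2FC in PEO4, -0.33 beside -0.37 for KRT18, did not pass (FDR = 0.0866). Epithelial junction genes, a list taken up after its values were seen, rose in PEA2 in 40 of 43 members, while 12 fell, 3 rose and 28 did not pass in PEO4, and 10 were opposed. Its medians were 4.12 and -0.13. Of the 26 serous markers, also taken up after their values were seen, 18 rose and 1 fell in PEA2, 9 rose and 8 fell in PEO4, and 5 were opposed with PEA2 higher. E-cadherin (CDH1) changed by 9.28 in PEA2 and by -0.62 in PEO4 (FDR = 0.413).

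ATF4 targets and aminoacyl-tRNA synthetases, which respond to a shortage of amino acids, moved less. Of 34 measured 16 rose and 6 fell in PEA2, and 3 rose and 18 fell in PEO4. Opposed were 7 with PEA2 higher and 0 the other way, against 8.35% and 6.13% of all genes. Medians were 0.34 and -0.40, and the interaction was negative in 24 and positive in 5. The pseudokinase TRIB3 had 5.28, 4.78 and 4.97 in PEA1, 7.27, 7.49 and 7.4 in PEA2, 4.95, 4.57 and 5.09 in PEO1, and 2.68, 1.66 and 2.22 in PEO4, a 5.20-fold rise in PEA2 and a 6.41-fold fall in PEO4. DDIT4, an inhibitor of mTORC1, rose 3.32-fold and fell 2.76-fold. The amino acid transporter SLC7A5 rose 2.91-fold and fell 1.54-fold, and the asparagine synthetase ASNS rose 2.76-fold and fell 1.47-fold, with libraries of PEO1 and PEO4 overlapping for ASNS.

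Among 39 Wnt pathway genes 8 were opposed with PEA2 higher and 2 with PEO4 higher, against 8.35% and 6.13% of all genes. The medians were near 0 at 0.17 and -0.16, and that of the interaction, -0.01, changed sign with the processing. The ligand WNT7B had means of 3.79 in PEA1, 7.78 in PEA2, 7.45 in PEO1 and 4.33 in PEO4, a 15.9-fold rise in PEA2 and an 8.70-fold fall in PEO4. WNT9A had no read in PEA1, was at least 15.0-fold higher in PEA2 and fell 3.35-fold in PEO4. The Wnt inhibitor DKK1 had no read in PEA1 and 25 in PEA2, at least 5.0-fold more, and fell 25.5-fold in PEO4. WNT11 had 1 read in PEA1 and none in PEA2, so no fold is given there, and rose 53.5-fold in PEO4 (FDR = 1.53e-07). It is counted among the 2 genes with PEO4 higher, although its change in the PEA pair rests on that 1 read.

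Collagens were mixed, with a block of type VI chains opposed. Of 18 measured 4 rose and 8 fell in PEA2, and 9 rose and 5 fell in PEO4. Opposed were 4 with PEO4 higher and 2 with PEA2 higher, against 6.13% and 8.35% of all genes. The medians were -0.83 and 1.02. COL6A2 had 8.15, 8.06 and 7.95 in PEA1, 3.05, 4.1 and 4.14 in PEA2, -2.61, -2.48 and -3.73 in PEO1, and 4.41, 4.07 and 4.59 in PEO4. It fell 19.6-fold in PEA2 (-4.29 ± 0.36, FDR = 6.23e-08), and PEO1 had no read, so PEO4 was at least 84.8-fold higher. COL6A1, its neighbour on chromosome 21 (47401684 to 47424964 for COL6A1 and 47518026 to 47552762 for COL6A2), averaged 7.81 in PEA1, 4.77 in PEA2, 2.85 in PEO1 and 5.35 in PEO4, an 8.22-fold fall and a 5.67-fold rise. COL6A3, the third chain of the same trimer, fell 2.86-fold (FDR = 0.0365) and rose 10.7-fold. The reads of COL6A3 were few, with 9, 6 and 4 in PEA1 and 2, 4 and 4 in PEA2. PEO1 held 3, 0 and 4 of them and PEO4 13, 15 and 17. COL4A4, a basement membrane chain, moved the other way, with a ratio of 152 (27.1 to 6039) in PEA2 and a 5.97-fold fall in PEO4.

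Of 8 fibroblast markers 6 were in the table and 0 were opposed. COL1A1, COL1A2 and COL3A1 are collagens too and count in both lists. The sum of the 6 was 366 to 449 CPM in PEA1, 3.45 to 6.4 in PEA2, 154 to 174 in PEO1 and 229 to 234 in PEO4. DCN and LUM, which mark fibroblasts, had no read in PEA1 or PEA2 and at most 1 in any library of PEO1 or PEO4. COL1A1 averaged 8.62 in PEA1, 1.95 in PEA2, 2.18 in PEO1 and 2.62 in PEO4. COL3A1 had 193, 189 and 156 reads in PEO4 and none in PEA1, PEA2 or PEO1. THY1 fell in PEA2 (FDR = 0.00245) and its log2FC of -0.09 in PEO4 did not pass. The part of such cells in the collagen result was not tested.

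Zinc finger genes of chromosome 19, many of them KRAB-type repressors, that changed were mostly lower in PEA2 and were all higher in PEO4. Of 68 measured 32 fell and 4 rose in PEA2, and 17 rose and 0 fell in PEO4. The opposed members were 8, all with PEO4 higher, against 6.13% of all genes. The interaction was positive in 38 and negative in 2, against 27.4% and 30.1% of all genes, and the medians were -0.63 and 0.36. Changes of single members were small, with log2FC of -1.65 and 1.26 for ZNF429, -1.76 and 0.94 for ZNF415, -1.80 and 0.80 for ZNF528 and -1.23 and 0.89 for ZNF329 in the PEA and PEO pairs. These genes resemble one another in sequence, and ZNF415 overlaps ZNF347 and ZNF429 overlaps LINC00664 on the same strand, so reads may be shared.

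Imprinted genes are expressed from the copy of 1 parent. Of 21 measured 3 were opposed with PEO4 higher and 1 with PEA2 higher, against 6.13% and 8.35% of all genes. The medians were -0.52 and 0.36. PEG10, a gene derived from a retrotransposon, had 10.66, 11.07 and 11.11 in PEA1, 6.34, 6.21 and 6.4 in PEA2, 8.05, 7.99 and 8.08 in PEO1, and 9.75, 9.63 and 9.67 in PEO4. It fell 24.8-fold in PEA2 (-4.63 ± 0.11, FDR = 3.3e-14) and rose 3.12-fold in PEO4 (1.64 ± 0.11, FDR = 1.48e-08). Its neighbour SGCE, which overlaps it on the other strand of chromosome 7 (94153516 to 94285884 for SGCE and 94285637 to 94299007 for PEG10), fell 5.78-fold and rose 2.60-fold. MEST fell 4.48-fold and rose 2.44-fold, at means of 3.91 in PEA1, 1.75 in PEA2, 8.8 in PEO1 and 10.09 in PEO4. PHLDA2 went the other way, with log2FC of 1.0 and -1.1.

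Cadherins and protocadherins split by member. Of 34 measured 4 were opposed with PEO4 higher and 5 with PEA2 higher, against 6.13% and 8.35% of all genes. The medians were -1.90 and 0.17. P-cadherin (CDH3) rose 99.2-fold in PEA2 and fell 6.80-fold in PEO4. CDH4 had no read in PEA1 or PEO4, and was at least 10.8-fold higher in PEA2 and at least 66.4-fold higher in PEO1 than in its partner. PCDH1 had a ratio of 1332 (239 to 52650) in PEA2 and fell 5.14-fold in PEO4. PCDHB7 was lower in PEA2 by a ratio of 137 (23.9 to 5466), while its log2FC in PEO4, 1.58, rests on 6 reads in PEO1 and 11 in PEO4.

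Regulators of DNA methylation and polycomb repression had medians near 0, at -0.23 and 0.09. Of 40 measured 1 was opposed with PEO4 higher and 5 with PEA2 higher, against 6.13% and 8.35% of all genes. TET2, which oxidises methylated cytosine, had log2FC of -1.06 and 0.47. The polycomb subunits PCGF5 and BMI1 had 1.82 and -0.75, and 0.34 and -1.26. CBX6 had 0.46 and -0.77, and its libraries overlapped between PEA1 and PEA2.

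Opposed genes were counted in each DNA repair list, and these lists are short. In the ATR-BRCA list 2 of 22 were opposed with PEO4 higher and 3 with PEA2 higher, in other homologous recombination genes 1 and 4 of 42, in nucleotide excision repair 0 and 1 of 25, in mismatch repair 0 and 1 of 19 and in end joining and translesion synthesis 2 and 3 of 26, beside 6.13% and 8.35% of all genes. The checkpoint kinase ATR averaged 6.23 in PEA1, 7.11 in PEA2, 7.16 in PEO1 and 6.29 in PEO4, with log2FC of 0.88 and -0.88, while the related kinase ATM averaged 6.63 in PEA1, 6.01 in PEA2, 6.4 in PEO1 and 7.05 in PEO4, with -0.62 and 0.65. RAD51C, which acts in homologous recombination, had -1.35 and 1.04. RFC4, a clamp loader subunit, had 1.22 and -1.22, and NBN, a sensor of double-strand breaks, had -1.02 and 0.72. RFC4 overlaps EIF4A2, and NBN overlaps DECR1 and OSGIN2, on the other strand.

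For the other opposed members the PEA pair is given first. The checkpoint clamp gene HUS1 had log2FC of 0.98 and -0.96, the polymerases POLQ and POLB had 0.85 and -0.69, and 0.98 and -0.66. XRCC6, which binds broken ends as Ku70, had 1.23 and -0.87. CETN2, a partner of the damage sensor XPC, had 0.89 and -1.45, and the Fanconi gene FANCB had 0.87 and -1.49. RAD18 had 0.74 and -0.49, RBBP8 had 0.87 and -0.35, and RIF1 had -0.25 and 0.86 with overlapping libraries in the PEA pair.

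Most interferon-stimulated genes rose in both pairs. Of 49 measured 28 rose in both pairs, and 6 were opposed, all with PEO4 higher, against 6.13% of all genes. In PEA2 28 rose and 7 fell, and in PEO4 47 rose and 0 fell. The interaction was positive in 36 and negative in 3, against 27.4% and 30.1% of all genes. BST2, which tethers budding viruses, had 6.1, 5.98 and 5.84 in PEA1, 2.85, 3.58 and 2.83 in PEA2, -2.61, -2.48 and -0.92 in PEO1, and 4.01, 3.83 and 4.64 in PEO4. It fell 7.41-fold in PEA2 (FDR = 2.18e-05) and PEO4 exceeded PEO1 by a ratio of 74.3 (24.9 to 364). IFI44L, IFI44 and IFITM2 fell 3.14-fold, 2.86-fold and 3.54-fold in PEA2 and had higher levels in PEO4, by ratios of 259 (71.1 to 2145) for IFI44L and 177 (48.3 to 1466) for IFITM2 and by 56.0-fold for IFI44. The double-stranded RNA sensor TLR3, named after its values were seen, was lower in PEA2 by a ratio of 54.5 (18.1 to 269) and rose 6.17-fold in PEO4.

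Of the 5 mesothelial markers measured, 4 rose and 1 fell in PEA2, 1 rose and 2 fell in PEO4, and CALB2 and PDPN were opposed, both with PEA2 higher. The interaction was negative in 3 and positive in 2. PDPN, or podoplanin, rose 4.43-fold in PEA2 and fell 1.79-fold in PEO4. CALB2, or calretinin, rose 7.95-fold in PEA2, while PEO4 had no read and PEO1 12 reads, at least 2.67-fold more, with libraries that overlapped in log2 CPM. With lines put at 3 reads the interaction of CALB2 no longer passed (FDR = 0.0656).

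The third pair, A2780 and CP70, was set beside the 180 genes. Of the 77 genes higher in PEO4, 9 (11.7%) were called higher and 14 (18.2%) lower in CP70, against 5.66% and 3.40% of all genes. Of the 103 genes higher in PEA2, 23 (22.3%) were higher and 8 (7.77%) lower. In all, 37 of the 180 genes moved in CP70 as in PEA2 and 17 as in PEO4.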

How the data were processed

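RNA-seq was analysed for the 12 libraries of PEA1, PEA2, PEO1 and PEO4, 3 per line. The authors prepared rRNA-depleted directional libraries, aligned reads to hg19, and assigned them to genes with featureCounts. Bowtie2 and limma are also named in the submitters' processing notes, without versions. The deposited values are log2 CPM of 12853 genes with 0.5 reads added, from which whole reads were recovered.

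The deposited log2 values were fitted with limma 3.58.1 (R 4.3.3, variance trend, a mean per line), with Benjamini-Hochberg adjustment over all genes. The self-test used simulated data. Members and lists were chosen with earlier results of these data known. The text names the 8 opposed genes of each direction with the largest smaller change, the 4 with the highest mean level, up to 4 opposed members of each list described and the opposed ATR-BRCA genes. A few genes are not reported here. Genes outside this rule are named as such or serve as markers. Gene spans are from GRCh37, with 211 genes unmatched. No batch is given in the labels. Alternatives changed the fit, scaling, filter, added reads, thresholds and libraries, and only the count of genes with no line at the floor was chosen after seeing the data.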

Additional observations from a re-analysis of the deposited data

Results flagged for a closer look

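The change with resistance differed between the pairs by the interaction term (limma, FDR below 0.05) for every gene reported here under the naming rule, 77 of 77. Over all genes the interaction was called beyond a log2FC of 2 for 1099 genes in the positive direction and 1395 in the negative direction. The selection of genes called in both pairs with opposite signs all but fixes the 77 of 77, so that count is a description. The check for an extreme library within a group was not made, since it is not defined here for groups of 3. No explanation was weighed.

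Positive interactions, meaning that PEO4 minus PEO1 exceeded PEA2 minus PEA1, on the log2 scale were ZFPM2 14.92, CLU 13.25, COL6A2 11.59, SCARA3 11.47, BST2 9.05, IFI44L 8.91, IFITM2 8.82, PCDHB7 7.54 and FGFR4 7.46. Smaller positive values were IFI44 7.32, SLC16A7 7.29, ID4 7.25, SEMA5A 7.0, WNT11 6.96, GLT8D2 6.67, PEG10 6.27, COL6A1 5.54, COL6A3 4.94 and SGCE 3.91. The lowest positive values were MEST 3.45, ZNF429 2.91, ZNF415 2.70, ZNF528 2.59, RAD51C 2.39, ZNF329 2.11, NBN 1.74, TET2 1.54, ATM 1.28 and RIF1 1.11.

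Negative interactions close to 0, on the same log2 scale, were RBBP8 -1.22, RAD18 -1.23, CBX6 -1.23, POLQ -1.54, BMI1 -1.60, POLB -1.64, ATR -1.76, HUS1 -1.95 and ASNS -2.02. Somewhat larger negative values were PHLDA2 -2.10, XRCC6 -2.10, SLC7A5 -2.17, CETN2 -2.34, FANCB -2.36, RFC4 -2.44, PCGF5 -2.57, PDPN -2.99, DDIT4 -3.20 and NSDHL -3.26. Further negative values were STARD4 -3.81, SREBF2 -4.07, HMGCS1 -4.48, KRT15 -4.73, CALB2 -4.98, TRIB3 -5.06, C3 -6.44, WNT9A -6.65, AKAP12 -6.72 and CLDN1 -6.93. Larger still in size were WNT7B -7.11, DKK1 -8.04, COL4A4 -8.71, ALDH1A3 -8.78, CXCL1 -8.99, KRT86 -9.13, CDH3 -9.40, TNF -10.21, L1CAM -10.25 and MKX -10.72. The most negative values were CDH4 -11.14, IL1B -11.23, PCDH1 -11.61, KRT7 -11.67, INHBB -11.86, KRT81 -14.92, PROM1 -15.09, IL8 -16.03 and EHF -17.19.

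Values of genes with a line at the floor depend on the 0.5 reads added.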

How the results depend on the processing

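The main counts of opposed genes, 77 higher in PEO4 and 103 higher in PEA2, and of interaction calls, 1099 positive and 1395 negative, were recomputed under each alternative. With a log2FC beyond 1 they were 291, 393, 2413 and 2843, and with the FDR alone 788, 1073, 3521 and 3870. With 2 reads added to each read count, the 4 numbers were 49, 71, 1043 and 1223. Counting only genes with no line at the floor, a choice made after seeing the data, left 26, 42, 687 and 863. Leaving out each library in turn gave 69 to 83, 99 to 110, 1077 to 1125 and 1365 to 1416. Quantile normalization gave 97, 107, 1167 and 1266, and moved the median change of all genes to at most 0.09 in size. Of 1540 recomputed interactions of the 77 named genes none changed sign and 1 lost its call, CALB2 at -2.17 (FDR = 0.0656) with lines put at 3 reads. Of 1020 recomputed list medians 97 moved and 19 changed sign, most of them close to 0 in the Wnt, ATR-BRCA, nucleotide excision and mismatch repair lists. Among these, the ATR-BRCA median of the PEA pair was -0.07 without PEA1 replicate 2, the Wnt interaction median was 0.18 under quantile normalization, and the cytokine median of the PEO pair was 0.21 with lines put at 3 reads. Depth limits the genes at the floor in PEA1 most, since its libraries are the shallowest. The causes were not tested.

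With the replicate block the counts were 77, 103, 1100 and 1397. Correlations of same-numbered libraries' deviations from their line means ran from -0.186 to 0.136 over 18 pairs of libraries, with 2 above 0.1, so the numbers were not taken to pair the libraries.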

Other observations

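HLA class I antigen presentation genes, 16 in the table, had a median of -0.07 for PEA2 minus PEA1 and of 1.12 for PEO4 minus PEO1. In PEA2 5 rose and 5 fell, in PEO4 13 rose and 1 fell, and 4 were opposed with PEO4 higher and 1, PDIA3, with PEA2 higher. The genes named here were chosen after their values were seen. The interaction was positive in 11 and negative in 3. The heavy chain HLA-B had log2FC of -0.92 and 0.94, its partner B2M had -0.53 and 0.26, and the peptide transporter TAP1 had -0.64 and 1.59. S100 proteins, small calcium-binding proteins, had medians of 0.96 and -0.14 over 10 genes, with 4 opposed and PEA2 higher, among them S100A9 with 6.50 and -2.13. Fatty acid synthesis genes had medians of 0.47 and -0.15 over 24 genes, with 5 opposed and PEA2 higher and 0 the other way. Over all genes the shares opposed were 6.13% with PEO4 higher and 8.35% with PEA2 higher.

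By chromosome, opposed genes with PEO4 higher made up 2.44% of the 123 genes of chromosome 21, against 0.599% of all genes. There were 3 on chromosome 21, among them the neighbours COL6A1 and COL6A2. They made up 1.63% of the 492 genes of chromosome 4, where there were 8. Those with PEA2 higher made up 2.15% of the 233 genes of chromosome 13, where there were 5, against 0.801% of all genes. Chromosome 22 had 5 of them among 292 genes, or 1.71%. On chromosome 4 there were 8 of them, or 1.63% of its genes, among them IL8, CXCL1 and CXCL2, which lie near one another. These lists, genes and chromosomes were chosen after their values were seen.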
